A study of Mus musculus with 36 samples.

Results

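The genes described here are the desaturases and elongases of polyunsaturated fat, with the enzymes that complete the elongation cycle. They are Fads1, Fads2, Fads3, Fads6, Elovl1, Elovl2, Elovl5, Scd2, Hacd3 and Tecr, taken by their symbols and described whatever their values. These genes were chosen with earlier results of these data known. They make up 10 of the 56748 genes in the deposited table, and each of them was measured in all 36 libraries.

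Mammals cannot make linoleic and alpha-linolenic acid and obtain both from the diet. Fads2 opens the conversion of these fats with a first double bond, Elovl5 lengthens the product, Fads1 adds a further double bond to give arachidonic and eicosapentaenoic acid, and Elovl2 lengthens these again on the way to docosahexaenoic acid. Every elongase adds malonyl-CoA to a fatty acyl-CoA, and the cycle is then closed by a reduction, a dehydration carried out by the Hacd enzymes and a last reduction carried out by Tecr. The liver is a main site of this synthesis and exports its products in lipoproteins. Not all members serve polyunsaturated fat. Scd2 is a stearoyl-CoA desaturase that makes monounsaturated fat, Elovl1 lengthens very-long-chain saturated and monounsaturated acyl-CoA used for ceramides, and Fads3 acts on the sphingoid base of ceramides.

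RNA was sequenced from epididymal fat, called visWAT, and from liver of 18 male mice on a C57BL/6J background, which gave 1 library per mouse and tissue. MlklAdi-KO mice carried floxed Mlkl alleles and an Adipo-Cre transgene that acts in mature adipocytes, while the WT mice were littermates with floxed alleles and without Cre. The mice were aged 16 weeks at the start and were fed for 16 weeks either normal chow (NCD) or high-fat food (HFD), with 4 mice of each genotype on NCD and 5 on HFD. Mouse numbers came from the labels, and the 2 libraries of a number are visWAT and liver of the same animal.

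Reads assigned to genes ranged from 20875463 to 25530574 per library in liver and from 21580696 to 30322171 in visWAT. Values are FPKM, the reads on a gene divided by its length and by a library size set by the authors, and therefore allow levels to be compared between genes. Mlkl, the targeted gene, lay between 1.96 and 2.72 FPKM in visWAT of the 9 MlklAdi-KO mice and between 3.91 and 6.28 FPKM in 8 of the 9 WT mice. In the other WT library, labelled NCD mouse 182, it was at 2.29 FPKM, within the MlklAdi-KO range, and in liver, whose cells the Cre does not target, Mlkl ranged from 1.62 to 4.19 FPKM over all mice. Hepatocyte markers summed to at least 38695.9 FPKM in every liver, and adipocyte markers to at least 3970.3 FPKM in every visWAT library. Seminal vesicle markers took 18.5% of the reads of the visWAT library of WT NCD mouse 183. Results that use WT NCD mice were also computed without mice 182 and 183. In whole tissue, fewer cells of a type and less RNA per cell cannot be told apart.

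Fads3, Fads2 and Fads1 lie side by side on chromosome 19 of GRCm39, from base 10018933 to base 10174241, a span of 155309 bases. Fads3 and Fads1 are on the plus strand and Fads2 lies between them on the minus strand, 2654 bases from Fads3 and 81141 bases from Fads1. Scd2 is on the same chromosome, at 44282113 to 44295303. Elovl5 lies on chromosome 9 from 77824646 to 77891801, Elovl2 on chromosome 13 from 41335857 to 41373881, Elovl1 on chromosome 4 from 118285290 to 118290150, and Tecr on chromosome 8 from 84298327 to 84334600.

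Elovl5, Elovl2, Elovl1 and Tecr were the members that fell in liver under HFD in both genotypes, and the 250 bases before their start sites are shown so that these 4 promoters can be read against that result. The sequences are from RefSeq on GRCm38.p6, an older build than that of the deposited table, and were matched by symbol, which found 8 of the 10 members. Elovl1 and Elovl2 have 2 windows each, of which window 1 is shown. Capitals mark the CCAAT box (CCAAT, or ATTGG where it is read from the other strand) and the E-box CACGTG. The positions are chr9:77917115-77917364 on the plus strand for Elovl5, chr13:41220404-41220653 on the minus strand for Elovl2, chr4:118427843-118428092 on the plus strand for Elovl1 and chr8:83594492-83594741 on the minus strand for Tecr.
Elovl5: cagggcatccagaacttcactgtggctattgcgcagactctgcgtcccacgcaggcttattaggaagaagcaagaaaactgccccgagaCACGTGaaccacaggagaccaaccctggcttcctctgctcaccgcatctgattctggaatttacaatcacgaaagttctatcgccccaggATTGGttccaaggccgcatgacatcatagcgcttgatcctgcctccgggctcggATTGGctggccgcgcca
Elovl2: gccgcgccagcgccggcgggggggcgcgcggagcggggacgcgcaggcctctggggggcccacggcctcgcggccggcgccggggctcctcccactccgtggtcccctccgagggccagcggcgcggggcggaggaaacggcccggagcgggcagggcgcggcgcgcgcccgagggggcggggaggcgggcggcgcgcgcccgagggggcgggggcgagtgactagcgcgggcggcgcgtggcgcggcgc
Elovl1: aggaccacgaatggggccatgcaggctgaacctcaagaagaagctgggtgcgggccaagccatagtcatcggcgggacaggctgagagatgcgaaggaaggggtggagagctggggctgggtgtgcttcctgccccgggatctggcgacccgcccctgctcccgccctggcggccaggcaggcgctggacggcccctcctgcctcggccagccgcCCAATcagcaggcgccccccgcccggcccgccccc
Tecr: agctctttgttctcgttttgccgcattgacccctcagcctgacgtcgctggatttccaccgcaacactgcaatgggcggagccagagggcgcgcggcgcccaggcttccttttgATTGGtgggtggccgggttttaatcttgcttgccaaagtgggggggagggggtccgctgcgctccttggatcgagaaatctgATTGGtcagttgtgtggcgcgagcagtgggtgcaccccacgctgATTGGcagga

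In all, 4 motifs were searched on both strands of the 32851 RefSeq promoter windows of this length. The sterol regulatory element TCACNCCAC was in 1.05% of the windows and in none of the 8 matched members. The E-box was in 6.02% of the windows and in 2 members, Elovl5 and Hacd3. The CCAAT box was in 33.8% of the windows and in 5 members, Fads3, Elovl1, Elovl5, Hacd3 and Tecr. Tecr held it at 3 places, 10, 54 and 136 bases before the start, and Elovl5 at 2 places, 17 and 71 bases before it. The GC box GGGCGG, not capitalised above, was in 32.7% of the windows and in 7 members, all but Elovl5. A member with 2 windows was counted if either held the motif, while the shares are per window. Window 2 of Elovl1 held GC boxes only, and window 2 of Elovl2 held no motif. In Elovl1 the GC box that starts 39 bases before the start shares letters with the CCAAT box at 35 bases. A match describes the letters of the window and is not a measured binding site.

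Under NCD the liver was rich in the enzymes of the polyunsaturated pathway and visWAT in Fads3 and Scd2. In WT liver the order of mean levels was Fads2, Elovl5, Elovl2, Fads1, Tecr, Hacd3, Fads6, Scd2, Elovl1 and Fads3, from 599 FPKM for Fads2 to 13.1 FPKM for Fads3. Fads2 and Elovl5 overlapped between mice, as did Fads6 with Scd2 and Scd2 with Elovl1, while every other neighbouring pair was separated in all mice. In WT visWAT the order was Scd2, Tecr, Fads3, Elovl5, Fads1, Elovl1, Hacd3, Fads2, Fads6 and Elovl2. Here neighbours overlapped between mice from Scd2 to Fads3 and from Elovl5 to Fads2. Only Fads3 and Elovl5, Fads2 and Fads6, and Fads6 and Elovl2 were separated. The place of Scd2 in both orders came from mouse 182. Without that mouse the mean of Scd2 in liver was 2.31 FPKM, below all other members, with Fads3 at 13.7 FPKM. In visWAT it was then 74.9 FPKM, below Fads3 at 84.0 FPKM.

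The 2 tissues of WT NCD mice differed for 8 of the 10 members, 2 higher and 6 lower in visWAT, where 65.5% of all genes tested passed the test, 31.5% higher and 34.0% lower. The test was limma on log2(FPKM + 1), and a gene was called where its p, adjusted over all genes by the Benjamini-Hochberg method, was below 0.05. Elovl2 was at 405, 355, 366 and 435 FPKM in liver of mice 165, 180, 182 and 183, and at 0.0638, 0.0567, 0.0279 and 0.0658 FPKM in their visWAT. It passed the filter on low values through liver alone and so had to differ, by -8.53 on the log2(FPKM + 1) scale. Fads2 was 511, 492, 768 and 626 FPKM in liver against 5.53, 6.05, 22.3 and 8.46 FPKM in visWAT, a difference of -5.88 (SE 0.39). Fads6, a desaturase-like protein, differed by -4.59 (SE 0.10), Elovl5 by -4.25 (SE 0.31), Fads1 by -3.85 (SE 0.19) and Hacd3 by -2.91 (SE 0.11). The tissues did not overlap for any of these 6 genes, among which Elovl2 had to differ. The share of all genes without overlap between the tissues was not computed.

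Fads3 went the other way. It was 14.6, 10.6, 11.4 and 15.8 FPKM in liver and 104, 81.6, 119 and 66.3 FPKM in visWAT, higher by 2.71 (SE 0.20) with an adjusted p of 6.58e-06. Scd2 was higher in visWAT by 3.88 (SE 1.27, adjusted p = 0.0247), with 56.3, 84.1, 491 and 84.4 FPKM there and 2.6, 1.69, 123 and 2.65 FPKM in liver. The values of mouse 182 made the 2 tissues overlap, and the Scd2 call was lost without mouse 165, 180 or 183 (adjusted p 0.0835 to 0.103) and with edgeR (adjusted p = 0.185). Without mice 182 and 183 it was 4.49. Elovl1 differed by -0.28 (adjusted p = 0.101) and Tecr by -0.40 (adjusted p = 0.412). Elovl1 passed with the mouse number as a replicate block (adjusted p = 0.0484) and without mice 182 and 183 (adjusted p = 0.0136), and Tecr passed without mouse 182 (-0.83, adjusted p = 0.00768). With values rescaled to the same sum in every library (TPM), the median of all genes was 0.547, against -0.033 on FPKM. The differences of -0.28 and -0.40 were within that shift between scales. RNA of visWAT and liver was extracted with different reagents, so tissue and extraction cannot be told apart.

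Whether feeding changed these genes in liver was asked separately in WT and in MlklAdi-KO mice. Under HFD the elongases fell in both genotypes and the last enzyme of the cycle fell with them, whereas Fads2, the entry step, did not pass the test. In WT liver 4 of 10 members were called, all lower, where 25.3% of all genes were called, 13.2% higher and 12.1% lower. In MlklAdi-KO liver 6 of 10 were called, 5 lower and 1 higher, where 22.2% of all genes were called, 11.9% higher and 10.3% lower. The median difference over the 10 members was -0.56 in WT and -0.48 in MlklAdi-KO, beside -0.001 and 0.003 over all genes tested.

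Elovl5, which lengthens the product of Fads2, fell most among the members called in both genotypes. It was 571, 496, 705 and 524 FPKM in WT NCD liver and 232, 248, 226, 210 and 373 FPKM in WT HFD liver. In MlklAdi-KO liver it was 569, 787, 545 and 463 FPKM under NCD and 80.8, 299, 281, 149 and 169 FPKM under HFD. The diets did not overlap in either genotype, although mouse 164 stood above the other WT HFD mice and mouse 151 was lowest of all. The means fell from 574 ± 92.7 (SD, n = 4) to 258 ± 65.6 FPKM (SD, n = 5) in WT, a log2 difference of -1.17 (SE 0.17, limma adjusted p = 0.00131). In MlklAdi-KO they fell from 591 ± 138 to 196 ± 92.2 FPKM, by -1.71 (SE 0.35, limma adjusted p = 0.00783).

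Elovl2, the elongase that acts on the longest substrates of the pathway, varied less between mice. It was 405, 355, 366 and 435 FPKM in WT NCD liver and 215, 205, 205, 200 and 240 FPKM in WT HFD liver. In MlklAdi-KO liver it was 307, 401, 372 and 299 FPKM under NCD and 161, 214, 213, 202 and 208 FPKM under HFD. Every HFD liver was thus below every NCD liver of its genotype. The log2 difference was -0.87 (SE 0.08, limma adjusted p = 0.000136) in WT and -0.78 (SE 0.12, limma adjusted p = 0.00162) in MlklAdi-KO, which is 1.82-fold and 1.72-fold lower.

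Elovl1 and Tecr are the members of this group that do not belong to polyunsaturated fat alone. Elovl1 was 17.7, 18.1, 22.4 and 19.7 FPKM under NCD and 12.8, 13.1, 11.9, 11.2 and 13.9 FPKM under HFD in WT liver. It was 16.5, 19.0, 16.1 and 17.7 FPKM and then 11.4, 14.4, 12.6, 11.7 and 13.9 FPKM in MlklAdi-KO liver. The diets did not overlap, and the gene fell by 0.59 (SE 0.08) in WT and by 0.42 (SE 0.08) in MlklAdi-KO on the log2 scale, with limma adjusted p of 0.00108 and 0.0068. Tecr varied little between mice, at 117, 118, 124 and 123 FPKM in WT NCD liver and 80.7, 78.6, 78.4, 81.7 and 86.7 FPKM in WT HFD liver. The MlklAdi-KO livers were at 122, 122, 130 and 126 FPKM under NCD and 76.6, 87.7, 81.3, 90.2 and 88.5 FPKM under HFD. Tecr fell by 0.56 (SE 0.05) in WT and by 0.55 (SE 0.06) in MlklAdi-KO, with limma adjusted p of 8.26e-05 and 0.000441. For Elovl5, Elovl2, Elovl1 and Tecr the two-sided exact permutation test over mice gave p = 0.0159 in each genotype, the smallest that 5 against 4 mice allow. Groups without overlap were found for 24.8% of all genes in WT and 21.5% in MlklAdi-KO liver. Hacd3, the dehydratase of the same cycle, stayed between 87.5 and 101 FPKM in all 18 livers and was not called (-0.07 and 0.02).

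**Figure D1:**
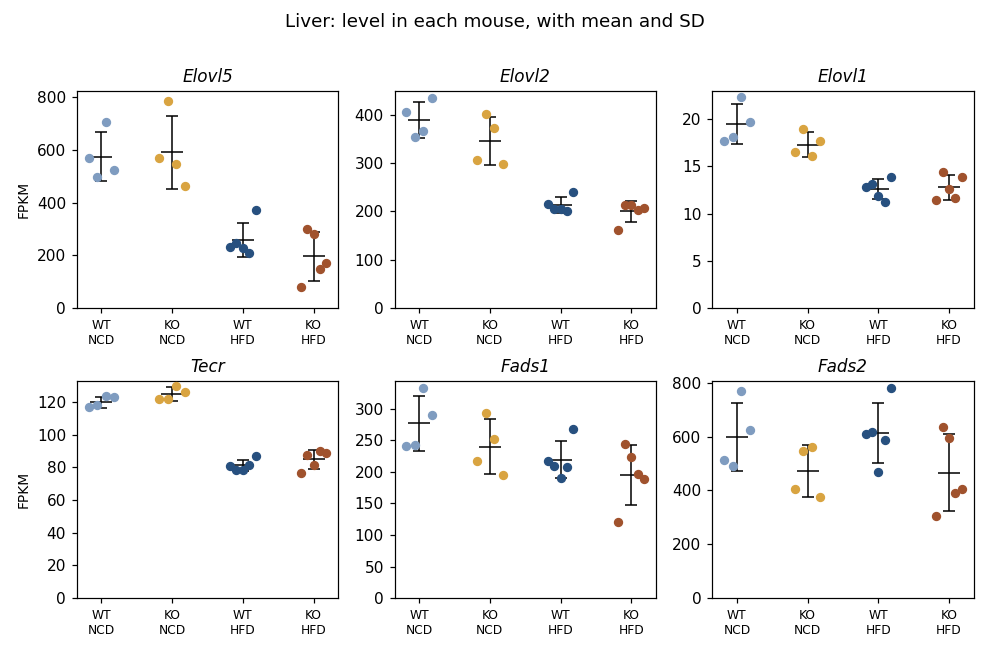
Levels of Elovl5, Elovl2, Elovl1, Tecr, Fads1 and Fads2 in liver, in FPKM on axes that start at 0, by genotype (WT, and KO for MlklAdi-KO) and diet. Points are mice, long bars are means and error bars are the SD. The HFD mice lie below all NCD mice of their genotype for Elovl5, Elovl2, Elovl1 and Tecr, while the groups overlap for Fads1 and Fads2.

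The desaturases of liver gave a different picture. Fads2 was 511, 492, 768 and 626 FPKM in WT NCD, 611, 615, 467, 588 and 781 FPKM in WT HFD, 404, 546, 562 and 375 FPKM in MlklAdi-KO NCD and 304, 636, 593, 391 and 405 FPKM in MlklAdi-KO HFD liver. All 4 groups overlapped, with differences by diet of 0.04 (95% interval -0.34 to 0.41) in WT and -0.05 (-0.55 to 0.45) in MlklAdi-KO. Fads1, which acts later in the pathway, was 241, 243, 333 and 291 FPKM in WT NCD and 218, 210, 190, 208 and 268 FPKM in WT HFD liver. Its difference was -0.34 (SE 0.12, limma adjusted p = 0.0772) in WT and -0.32 (SE 0.20, limma adjusted p = 0.285) in MlklAdi-KO. In WT the test was passed with DESeq2 (adjusted p = 0.028) and without WT HFD mouse 164 (-0.41, adjusted p = 0.0338), and without mice 182 and 183 the difference was -0.15.

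Fads3 and Fads6 were called in MlklAdi-KO liver. Fads3 was 7.81, 23.6, 19.2 and 20.4 FPKM under NCD and 3.76, 7.91, 8.69, 5.18 and 3.21 FPKM under HFD, so that MlklAdi-KO NCD mouse 166 overlapped the HFD mice. It fell by 1.45 (SE 0.34, limma adjusted p = 0.0142). In WT the difference was -0.57 (SE 0.26, limma adjusted p = 0.147), and it passed the test without WT HFD mouse 164 (-0.79, adjusted p = 0.011), whose 16.5 FPKM was the highest of its group. Fads6 was 31.9, 35.3, 31.3 and 26.7 FPKM under NCD and 37.4, 37.6, 38.7, 40.1 and 41.0 FPKM under HFD, without overlap, and rose by 0.31 (SE 0.08, limma adjusted p = 0.019). In WT its difference was 0.06 (limma adjusted p = 0.445). Scd2 was between 0.935 and 7.14 FPKM in 17 of the 18 livers. In MlklAdi-KO its difference of -0.88 (limma adjusted p = 0.0994) passed with edgeR (adjusted p = 0.0275), with DESeq2 (adjusted p = 0.0149) and without MlklAdi-KO NCD mouse 199 (adjusted p = 0.0471).

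The hepatocyte marker sum was 53546.4 to 64350.3 FPKM in NCD livers and 38695.9 to 51013.9 FPKM in HFD livers, so it moved with the members that fell. Of its 6 markers, 3 were called lower in WT and 4 in MlklAdi-KO. Adipocyte markers in liver summed to 9.41 to 26.7 FPKM under NCD and 71.1 to 106 FPKM under HFD in WT, and to 7.72 to 31.5 and 12.9 to 86.9 FPKM in MlklAdi-KO, with 2 of 3 tested markers called higher in WT and 1 of 3 in MlklAdi-KO. The highest liver values of these markers were 96.0 FPKM for Cidec, 7.23 for Lipe, 5.14 for Fabp4, 2.7 for Adipoq, 1.18 for Plin1 and 0.875 for Lep. Macrophage markers in liver summed to 36.1 to 119 FPKM under NCD and 31.0 to 112 FPKM under HFD. The part of cell composition in these results was not tested.

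In visWAT the same diet moved a different set of members. Fads1 fell in both genotypes, while Fads3 and Elovl1 rose in both. In each genotype 4 of the 9 members tested were called, 3 higher and 1 lower, where 37.8% of all genes were called in WT (21.9% higher, 15.8% lower) and 43.7% in MlklAdi-KO (23.3% higher, 20.3% lower). The share of members was therefore close to that of all genes. The median difference was -0.27 in WT and 0.01 in MlklAdi-KO, beside -0.006 and 0.009 over all genes tested. Elovl2 did not pass the filter on low values in visWAT.

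Fads1 was 16.2, 21.4, 22.7 and 13.4 FPKM in WT NCD visWAT and 9.43, 10.1, 10.1, 8.98 and 9.55 FPKM in WT HFD visWAT. In MlklAdi-KO it was 24.4, 24.2, 18.5 and 17.6 FPKM under NCD and 9.08, 8.75, 9.38, 10.7 and 7.7 FPKM under HFD. All HFD mice were below all NCD mice, and the WT HFD mice were closely grouped. The means went from 18.4 ± 4.39 (SD, n = 4) to 9.64 ± 0.482 FPKM (SD, n = 5) in WT and from 21.2 ± 3.6 to 9.11 ± 1.07 FPKM in MlklAdi-KO. The log2 difference was -0.84 (SE 0.14, limma adjusted p = 0.00136) in WT and -1.13 (SE 0.12, limma adjusted p = 0.000322) in MlklAdi-KO. With values rescaled to TPM, a unit whose sum is the same in every library, the WT difference was -0.42 (adjusted p = 0.346). That scale moved the median of all genes in this comparison from -0.006 to 0.376, and 94.4% of its calls were higher under HFD, against 58.1% on FPKM and 45.9% with edgeR.

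Fads3 was the member with the highest mean in visWAT of both HFD groups. It was 104, 81.6, 119 and 66.3 FPKM in WT NCD and 145, 153, 161, 178 and 156 FPKM in WT HFD mice, and 105, 85.4, 102 and 112 FPKM in MlklAdi-KO NCD and 222, 167, 159, 218 and 244 FPKM in MlklAdi-KO HFD mice. The diets did not overlap in either genotype. Fads3 rose by 0.80 (SE 0.16, limma adjusted p = 0.00425) in WT and by 0.98 (SE 0.15, limma adjusted p = 0.00107) in MlklAdi-KO. Elovl1 was 13.1, 14.3, 18.8 and 17.8 FPKM and then 21.0, 29.5, 26.1, 24.5 and 23.8 FPKM in WT, and 15.0, 14.6, 13.8 and 14.4 FPKM and then 26.3, 25.9, 26.2, 20.2 and 22.8 FPKM in MlklAdi-KO. Again no HFD mouse was within the NCD range, and Elovl1 rose by 0.62 (SE 0.13) in WT and 0.70 (SE 0.08) in MlklAdi-KO, with limma adjusted p of 0.0047 and 0.000462. The two-sided exact permutation test gave p = 0.0159, the smallest possible, for Fads1, Fads3 and Elovl1 in each genotype. Groups without overlap were found for 33.4% of all genes in WT and 38.4% in MlklAdi-KO visWAT.

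**Figure D2:**
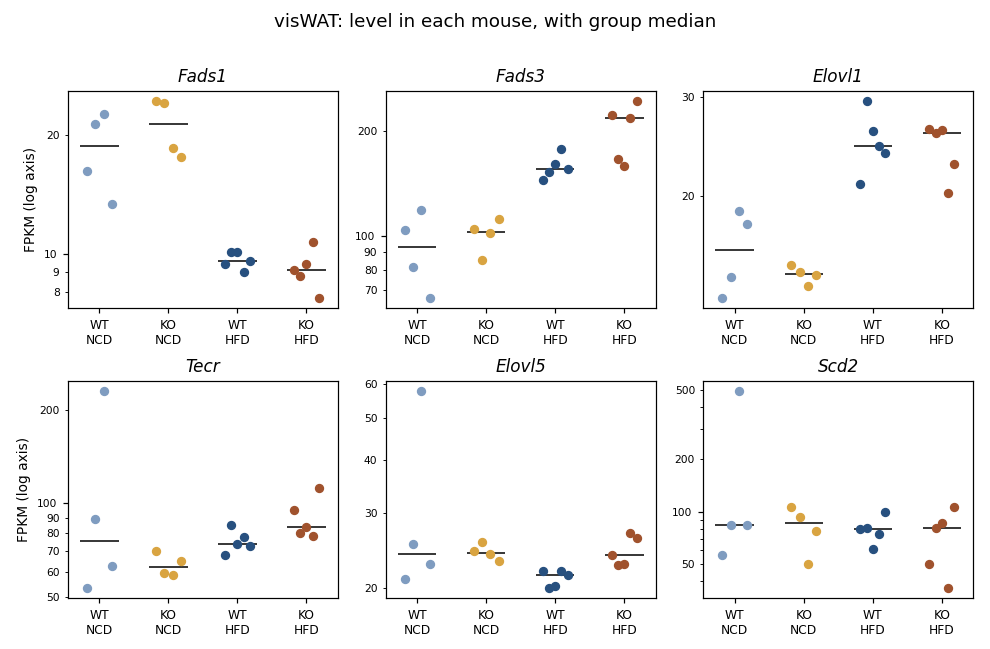
Levels of Fads1, Fads3, Elovl1, Tecr, Elovl5 and Scd2 in visWAT, in FPKM on log axes, by genotype (WT, and KO for MlklAdi-KO) and diet. Points are mice and bars are group medians. Fads1 is lower and Fads3 and Elovl1 are higher in all HFD mice, and 1 WT NCD library, labelled mouse 182, stands above the rest for Tecr, Elovl5 and Scd2.

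In visWAT 2 members were called in 1 genotype only. Fads6 was near the filter, at 0.773, 0.522, 0.461 and 0.363 FPKM in WT NCD and 1.55, 1.5, 1.28, 0.898 and 1.56 FPKM in WT HFD mice. The groups did not overlap, and it rose by 0.62 (SE 0.11, limma adjusted p = 0.00235), against 0.05 (SE 0.15, limma adjusted p = 0.823) in MlklAdi-KO. Tecr was 70.5, 59.7, 58.8 and 65.4 FPKM in MlklAdi-KO NCD and 95.5, 80.5, 83.7, 78.6 and 112 FPKM in MlklAdi-KO HFD mice, without overlap, and rose by 0.49 (SE 0.12, limma adjusted p = 0.00851). In WT its difference was -0.27 (SE 0.37), with mouse 182 at 230 FPKM, and it was 0.13 (limma adjusted p = 0.584) without mice 182 and 183. Neither gene was called for a difference of the diet effect between genotypes, at -0.58 (95% interval -0.99 to -0.17, limma adjusted p = 0.326) for Fads6 and 0.76 (-0.10 to 1.62, limma adjusted p = 0.416) for Tecr.

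The remaining members of visWAT were not called for diet. Fads2 ranged from 3.82 to 22.3 FPKM over the 18 libraries, Elovl5 from 20.0 to 57.8 FPKM, Scd2 from 36.4 to 491 FPKM and Hacd3 from 8.79 to 14.7 FPKM, the highest values of the first 3 all in the library labelled WT NCD mouse 182. Without mice 182 and 183 the WT differences by diet were 0.05 for Fads2, -0.13 for Elovl5 and 0.18 for Scd2, in place of -0.52, -0.44 and -0.60. Hacd3 was lower under HFD by 0.19 in both genotypes without passing the test. In MlklAdi-KO its limma adjusted p was 0.0594, and it passed with edgeR (0.0344), with DESeq2 (0.0476), without MlklAdi-KO HFD mouse 152 (0.0492) and without mouse 153 (0.0499).

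Macrophage markers in visWAT summed to 170 to 400 FPKM under NCD, 1510.7 to 2106.5 FPKM in WT HFD and 598 to 1936.9 FPKM in MlklAdi-KO HFD mice. All 7 of them rose in WT and 6 of 7 in MlklAdi-KO. Fibroblast markers summed to 138 to 227 FPKM under NCD, 373 to 484 FPKM in WT HFD and 192 to 471 FPKM in MlklAdi-KO HFD mice, with 4 of 4 and 2 of 4 called higher. The adipocyte marker sum was 3970.3 to 6728.9 FPKM under NCD, 4330.4 to 5163.8 FPKM in WT HFD and 4815.6 to 7897.5 FPKM in MlklAdi-KO HFD mice. Under HFD the macrophage sums lay above the NCD range in both genotypes, and the fibroblast sums did so in WT. The adipocyte sums overlapped between the diets. Their median went from 5641.8 to 4826.0 FPKM in WT and from 5803.5 to 7388.7 FPKM in MlklAdi-KO. The part of cell composition in the visWAT results was not tested.

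**Figure D3:**
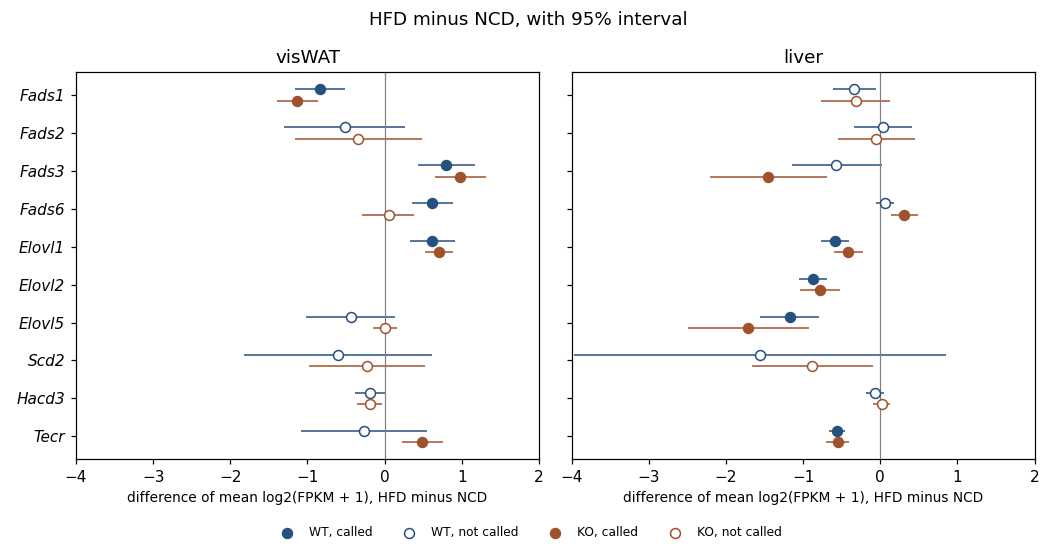
Difference by diet (HFD minus NCD) of each member on the log2(FPKM + 1) scale in visWAT and liver, for WT and for KO (MlklAdi-KO), with 95% intervals. Filled points passed the test at an adjusted p of 0.05, and Elovl2 has no point in visWAT because it was not tested there. Elovl1 lies above 0 in visWAT and below 0 in liver in both genotypes.

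The response to diet was compared between the tissues of WT mice in 1 fit over their 18 libraries. It differed for 5 of the 10 members, 4 with the higher difference in visWAT and 1 with the lower, where 40.0% of all genes were called, 21.8% with the higher and 18.2% with the lower difference in visWAT. Elovl1 rose in visWAT and fell in liver, and the 2 diet differences were 1.20 apart (SE 0.16, limma adjusted p = 1.42e-05). Fads3 was 1.37 apart (SE 0.32, limma adjusted p = 0.00293) and Fads6 0.56 apart (SE 0.13, limma adjusted p = 0.0021). Elovl2 was 0.91 apart, but it was near 0 in visWAT and entered the fit through liver alone, and with edgeR its adjusted p was 0.243 and with a pseudocount of 0.1 it was 0.148. Fads1 was -0.51 apart (limma adjusted p = 0.0499), and with the mouse number as a replicate block its adjusted p was 0.057. Leaving out WT NCD mouse 165 or 180, or WT HFD mouse 154, 155, 161, 162 or 164, ended the Fads1 call (adjusted p 0.054 to 0.19), as did the TPM scale (-0.11) and no filter on low values (adjusted p = 0.0873). Elovl5 was 0.73 apart (limma adjusted p = 0.0869) and passed with the block (adjusted p = 0.0433), on the TPM scale (1.16, adjusted p = 0.0458) and without mouse 182 (0.95, adjusted p = 0.00136). Tecr was 0.29 apart and passed without mouse 182 (0.72, adjusted p = 0.00305). On the TPM scale the median of all genes in this comparison was 0.355, and 86.5% of its calls were higher, against 54.5% on FPKM.

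Whether adipocyte Mlkl deletion changed the members was asked at each diet and in each tissue, and no member was called. In visWAT under HFD limma called 0 of 9 members, where 0.0215% of all genes were called, and edgeR and DESeq2 called 0 as well. At an unadjusted p below 0.05 there were 4 of the 9 members, where 21.5% of all genes were below it. Elovl5 was 21.9, 20.0, 20.2, 22.0 and 21.5 FPKM in WT and 23.9, 22.7, 22.8, 26.9 and 26.2 FPKM in MlklAdi-KO mice. It was the 1 member whose groups did not overlap, which held for 3.01% of all genes. Its difference was 0.20 (95% interval 0.06 to 0.35), with an adjusted limma p of 0.221. The two-sided exact permutation test gave p = 0.00794, the smallest that 5 against 5 mice allow. The others were Fads3 at 0.33 (95% interval 0.05 to 0.61), Fads6 at -0.39 (-0.72 to -0.07) and Tecr at 0.24 (0.01 to 0.48), with limma adjusted p of 0.221, 0.221 and 0.229 and with overlap between the genotypes. For Fads1 the difference was -0.08 (-0.24 to 0.09) and for Elovl1 -0.04 (-0.26 to 0.19).

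Cell type markers were also compared between the genotypes. In visWAT under HFD the median difference by genotype was -0.69 over the 7 macrophage markers, -0.46 over the 4 fibroblast markers and 0.40 over the 6 adipocyte markers, with 4, 2 and 3 markers at an unadjusted limma p below 0.05 and 0 called by limma, edgeR or DESeq2. MlklAdi-KO HFD mice 152 and 153 had macrophage sums within the WT HFD range, at 1830.8 and 1936.9 FPKM, while mice 151, 156 and 157 were below it, at 1203.9, 635 and 598 FPKM. Fads3 was 167 and 159 FPKM in mice 152 and 153, within the WT range, against 222, 218 and 244 FPKM in the other 3. Fads6 was 1.21 and 1.19 FPKM in mice 152 and 153, also within it, against 0.572, 0.754 and 0.36 FPKM. Elovl5 was 22.7 and 22.8 FPKM in mice 152 and 153, above the WT range of 20.0 to 22.0 FPKM. It was 23.9, 26.9 and 26.2 FPKM in mice 151, 156 and 157. Tecr was 80.5 and 83.7 FPKM in mice 152 and 153, within the WT range, against 95.5, 78.6 and 112 FPKM. The part of cell composition in the genotype differences was not tested.

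In visWAT under NCD 0 of 9 members were called by limma, edgeR or DESeq2 and 0 had an unadjusted p below 0.05, where 0.0% of all genes were called by limma. The differences ran from -0.58 for Scd2 to 0.21 for Fads1, and the intervals of Scd2 (-2.03 to 0.86), Fads2 (-1.26 to 0.82) and Tecr (-1.45 to 0.42) were wide. Without mice 182 and 183 the 3 differences were 0.20, 0.34 and -0.12. In liver 0 of 10 members were called by the 3 tools at either diet, and 0 had a limma p below 0.05, where 0.197% of all genes were called under HFD and 0.00758% under NCD. DESeq2 gave no adjusted p for Scd2 in visWAT under NCD or in liver at either diet, so it could not call this gene. The members with the lowest p in liver under HFD were Fads2 (-0.43, 95% interval -0.88 to 0.02, limma adjusted p = 0.428) and Fads3 (-0.56, -1.22 to 0.10, limma adjusted p = 0.484). Elovl5 differed by -0.51 there (-1.23 to 0.21), with overlap between the genotypes. For Tecr, Hacd3 and Elovl1 the liver intervals under HFD were -0.06 to 0.18, -0.05 to 0.16 and -0.15 to 0.19.

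The difference of the genotype effect between diets was called for 0 of 9 members in visWAT and 0 of 10 in liver by limma, and for 0 by edgeR and DESeq2, where limma called 0.0% and 0.0151% of all genes. At an unadjusted p below 0.05, where 13.2% of all genes were found in visWAT and 6.12% in liver, there was 1 member in each tissue, Fads6 in both, at -0.58 in visWAT and 0.25 (95% interval 0.05 to 0.45, limma adjusted p = 0.638) in liver. Calls of a member in 1 genotype and not in the other, such as those of Fads3 and Fads6 in MlklAdi-KO liver, therefore do not show a difference between genotypes. For Fads3 in liver it was -0.89 (-1.86 to 0.09, limma adjusted p = 0.874).

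**Figure D4:**
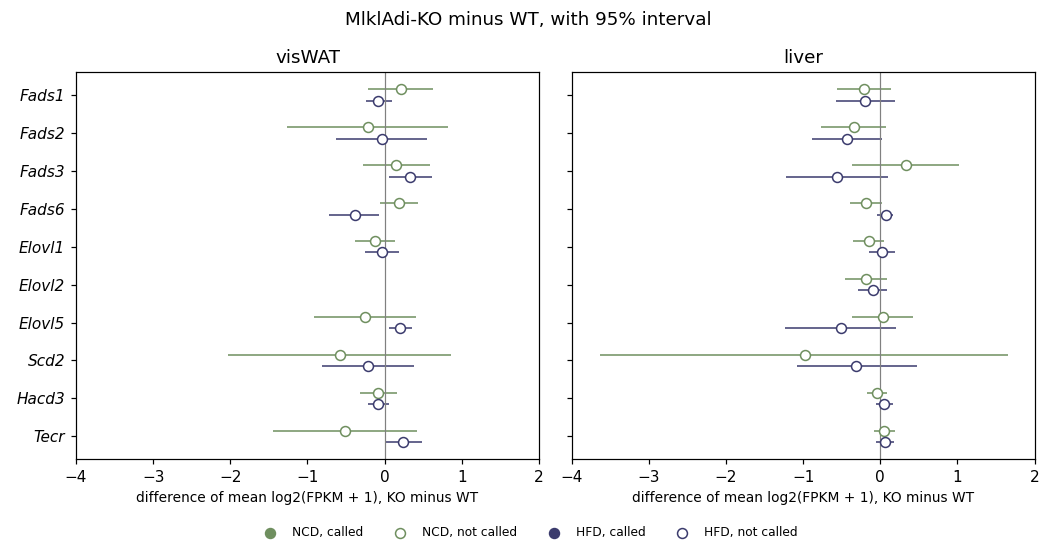
Difference by genotype (KO for MlklAdi-KO, minus WT) of each member on the log2(FPKM + 1) scale in visWAT and liver, under NCD and under HFD, with 95% intervals. No point is filled, since no member passed the test at an adjusted p of 0.05, and Elovl2 was not tested in visWAT. The interval of Elovl5 in visWAT under HFD runs from 0.06 to 0.35.

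The library labelled WT NCD mouse 182 held the highest values of several members in both tissues. Scd2 was 491 FPKM in its visWAT, against 56.3 to 84.4 FPKM in the other WT NCD mice, and 123 FPKM in its liver, against 1.69 to 2.65 FPKM. That is 6.56 and 53.2 times the mean of the other 3. In visWAT Tecr was 3.37 times, Fads2 3.34 times and Elovl5 2.51 times the mean of the others, while in liver Tecr was 1.04 times, Fads2 1.41 times and Elovl5 1.33 times that mean. It was the highest of the 4 WT NCD mice for 7 of 10 members in visWAT and 6 of 10 in liver. In its liver macrophage markers summed to 119 FPKM and fibroblast markers to 86.1 FPKM, the highest of the WT NCD livers. Without mice 182 and 183, each member called by diet in WT visWAT and WT liver was called again, and no other member was.

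**Figure D5:**
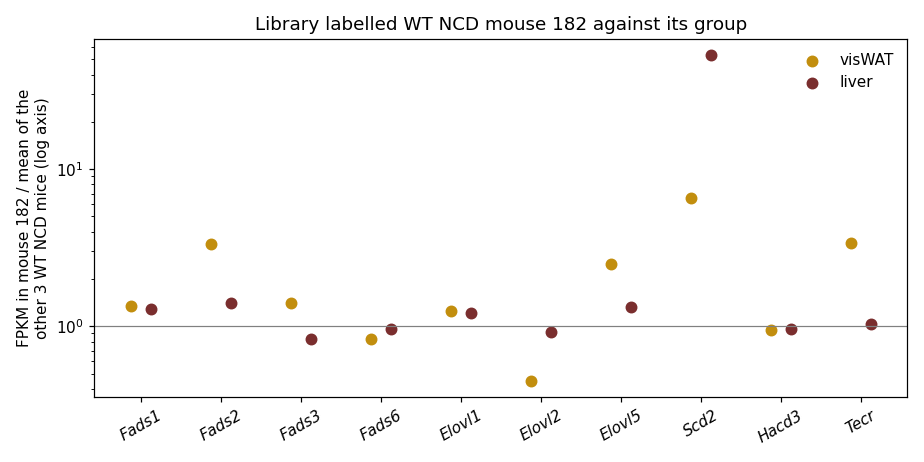
FPKM of each member in the library labelled WT NCD mouse 182, divided by the mean of the other 3 WT NCD mice, on a log axis, in visWAT and liver. The line marks a ratio of 1. Scd2 is 6.56 in visWAT and 53.2 in liver, and Fads6 and Hacd3 lie between 0.833 and 0.957 in both tissues.

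Elovl2 in visWAT was at or near 0 in 15 of the 18 libraries, at most 0.0658 FPKM. It was 0.235 FPKM in MlklAdi-KO NCD mouse 199, 0.418 FPKM in WT HFD mouse 164 and 1.91 FPKM in MlklAdi-KO HFD mouse 156. The same 3 visWAT libraries held the most hepatocyte marker RNA, with sums of 71.4, 99.4 and 731 FPKM. These were 0.117%, 0.251% and 1.43% of the sum in the liver of the same mouse, and the Elovl2 values were 0.0787%, 0.174% and 0.95% of its liver level. In mouse 156 Fads2 was 13.0 FPKM in visWAT, 3.32% of its liver level, beside 3.82 to 5.39 FPKM in the other MlklAdi-KO HFD mice. The part of liver RNA in these values was not tested.

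The other genes of the pathway were taken from 6 lists of 81 genes in all. For genotype, limma and edgeR called 0 of the 60 to 71 genes tested in each of the 4 comparisons. At an unadjusted limma p below 0.05 there were 19 of 66 genes in visWAT under HFD and 2 of 71 under NCD. In liver there were 11 of 60 under HFD and 1 of 61 under NCD. Among all genes 21.5%, 3.75%, 12.6% and 4.35% were below it, in the same order. The lists differed. In visWAT under HFD 0 of 3 other desaturases and elongases and 2 of 9 cycle and electron donor genes were below it. So were 4 of 11 remodelling genes, 7 of 12 peroxisomal genes, 5 of 15 eicosanoid genes and 1 of 16 regulators. Liver under HFD had 3 of 4, 2 of 7 and 1 of 11 in the first 3 of these lists. It had 3 of 12, 0 of 7 and 2 of 19 in the last 3. DESeq2 called 1, in visWAT under HFD, which was Ephx2, a soluble epoxide hydrolase named here after its values were seen. Under HFD Scd1, the main stearoyl-CoA desaturase, fell in both tissues and both genotypes. In liver it fell from 7534.1 to 2891.1 FPKM in WT (log2 difference -1.39, SE 0.18) and from 5751.7 to 1648.4 FPKM in MlklAdi-KO (-2.0, SE 0.46). In visWAT it fell by 2.09 (SE 0.46) in WT and by 1.27 (SE 0.30) in MlklAdi-KO, calls that were lost with no filter on low values (adjusted p 0.193 and 0.278) and, in WT, on the TPM scale (0.0531). Among the other desaturases and elongases 3 genes were called in each of the 4 diet comparisons, of 3 to 5 tested. In WT visWAT, MlklAdi-KO visWAT and WT liver 1 rose and 2 fell, and in MlklAdi-KO liver all 3 fell. The list medians were -0.73 and -1.27 in visWAT and -0.94 and -1.14 in liver of WT and MlklAdi-KO mice. With 3 genes tested in MlklAdi-KO visWAT, the median there is the Scd1 value. Among all genes 37.8% and 43.7% were called in visWAT and 25.3% and 22.2% in liver. Elovl6, which lengthens palmitate, fell by 3.04 in WT visWAT and by 1.76 in MlklAdi-KO visWAT. The WT value was -1.89 without mouse 182, and leaving out WT NCD mouse 180 or WT HFD mouse 154, 155, 161 or 162 ended the call (adjusted p 0.0516 to 0.0571). Degs1, the dihydroceramide desaturase, rose in visWAT by 0.70 and 0.74 and fell in liver by 0.50 and 0.28. Elovl3 fell in MlklAdi-KO liver from 255 to 22.7 FPKM (-3.51, SE 0.24). Of the 4 genes of this list tested in liver, 0 were called for a difference of the diet effect between genotypes.

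The rest of the elongation cycle and the electron donors of the desaturases, a list of 9 genes, had 4 called in each diet comparison. Tested were 9 in visWAT and 7 in liver. Among all genes 37.8% and 43.7% were called in visWAT and 25.3% and 22.2% in liver, of WT and MlklAdi-KO mice. Cyb5b, a cytochrome b5 of the outer mitochondrial membrane, fell in liver by 0.63 (SE 0.10) in WT and 0.79 (SE 0.13) in MlklAdi-KO. Cyb5a, the form that passes electrons to the desaturases, fell in WT visWAT by 0.70 (SE 0.12), and by 0.23 without a call on the TPM scale (adjusted p = 0.622). In liver all 4 calls in MlklAdi-KO were lower, with a list median of -0.31, and in WT 3 were lower and 1 higher, with a median of -0.21. In visWAT 3 rose and 1 fell in WT (median -0.08), and 4 rose in MlklAdi-KO (median 0.11). In WT 4 were higher and 2 lower in visWAT without mice 182 and 183, and 2 were lower and none higher in liver. Among all genes 52.1% and 20.8% were then called in visWAT and liver. The gene that was higher in WT liver was Cyb5a (0.36), whose call was also lost without WT HFD mouse 154, 161 or 162 (adjusted p 0.051 to 0.0528).

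Activation and phospholipid remodelling covers the acyl-CoA synthetases and the enzymes that place fatty acids in phospholipids. In liver 6 of 13 genes tested were called in WT, 2 higher and 4 lower, and 2 of 10 in MlklAdi-KO, 1 in each direction, with list medians of 0.03 and -0.14. Among all genes 25.3% and 22.2% were called there. Acsl5, an acyl-CoA synthetase, fell in liver by 1.15 (SE 0.10) and 1.14 (SE 0.12) and rose in visWAT by 0.47 (SE 0.07) and 0.45 (SE 0.06). In visWAT 3 genes were called in each genotype, of 12 tested in WT and 11 in MlklAdi-KO, 2 higher and 1 lower. The medians were -0.05 and 0.02, and 37.8% and 43.7% of all genes were called. Without mice 182 and 183, the calls in WT were 1 higher and 2 lower in liver and 1 in each direction in visWAT. Among all genes 20.8% and 52.1% were then called in liver and visWAT.

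Peroxisomal chain shortening is the last stage of docosahexaenoic acid synthesis. Of its 12 genes, 5 were called in WT liver (2 higher, 3 lower) and 6 in MlklAdi-KO liver (3 higher, 3 lower), with list medians of 0.18 and 0.06. Among all genes 25.3% were called in WT liver and 22.2% in MlklAdi-KO liver. Ehhadh, the bifunctional enzyme of peroxisomal oxidation, fell by 1.98 (SE 0.23) in WT, from 622 to 147 FPKM, and by 1.97 (SE 0.12) in MlklAdi-KO, from 501 to 127 FPKM. Abcd3, a peroxisomal fatty acid transporter, fell by 0.50 and 0.62. In visWAT 5 genes were called in each genotype (medians -0.23 and -0.09), near the 37.8% and 43.7% called among all genes. Abcd2, a transporter of very-long-chain acyl-CoA, was lower by 0.80 in both. On the TPM scale the WT value of Abcd2 was -0.34 and not called (adjusted p = 0.516). Without mice 182 and 183, 10 of the 12 were called in WT visWAT, 4 higher and 6 lower. Leaving out these mice also raised the share of all genes called there from 37.8% to 52.1%.

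Eicosanoid release and synthesis uses the arachidonic acid that the pathway makes. In visWAT 8 of its 16 genes tested were called in WT, 7 higher and 1 lower, and 7 in MlklAdi-KO, 6 higher and 1 lower, with list medians of 0.22 and 0.20. Beside this, 37.8% of all genes were called in WT (21.9% higher) and 43.7% in MlklAdi-KO (23.3% higher). Hpgds, which makes prostaglandin D, rose by 2.86 (SE 0.20) in WT and 1.87 (SE 0.48) in MlklAdi-KO. Tbxas1, the thromboxane synthase, rose by 2.24 (SE 0.10) and 1.33 (SE 0.33), and Alox5ap, which presents arachidonic acid to 5-lipoxygenase, by 2.02 (SE 0.14) and 1.44 (SE 0.20). These are also genes of macrophages, whose markers rose in the same libraries, and the part of this in the result was not tested. In liver 1 of 7 genes, Cyp2j6, was called in WT (0.24, SE 0.06), and not without mice 182 and 183 (0.17, adjusted p = 0.0898). Of all genes in WT liver 25.3% were called. In MlklAdi-KO liver limma, edgeR and DESeq2 called 0 of 8, and 0 had an unadjusted limma p below 0.05. There limma called 22.2% of all genes, and 35.6% were below that unadjusted p.

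Of the regulators, 17 were tested in visWAT and 19 in liver. In visWAT Mlxipl, which encodes ChREBP, fell by 1.76 (SE 0.27) and 1.31 (SE 0.20), and Srebf1, the lipogenic sterol regulatory element binding protein, fell by 1.24 (SE 0.17) and 0.92 (SE 0.19), in WT without passing on the TPM scale (-0.77, adjusted p = 0.0899). In liver Srebf1 rose by 0.97 (SE 0.18) in WT and 1.39 (SE 0.22) in MlklAdi-KO, from 71.2 to 138 FPKM and from 69.6 to 184 FPKM, while Insig1, an inhibitor of its processing, fell by 1.91 (SE 0.21) and 1.42 (SE 0.25). The counts were 1 higher and 6 lower in WT visWAT, 1 and 5 in MlklAdi-KO visWAT, 3 and 5 in WT liver and 2 and 6 in MlklAdi-KO liver, and the list medians were -0.33, -0.12, -0.03 and 0.03 in the same order. Among all genes, in that order, 21.9%, 23.3%, 13.2% and 11.9% were higher and 15.8%, 20.3%, 12.1% and 10.3% lower. With edgeR 10 regulators were lower in WT visWAT, where edgeR called 41.4% of all genes in either direction.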

How the data were processed

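Polyadenylated RNA of visWAT and liver was sequenced by the authors, trimmed with fastp, mapped with HISAT2 to mm39 (GRCm39) and counted on genes with featureCounts 1.5.0-p3, the build and this version per the submitters' processing notes. Strandedness, the annotation release and the handling of reads that fit several genes are not given in the sources used here, so values of overlapping genes are uncertain. The authors deposited FPKM for all 56748 genes, and raw counts for the genes listed in their comparison tables. Their own fold changes, p-values and pathway tables, and 72 further columns of values per sample, were not used. Adipose RNA was extracted with TRIzol per the labels and QIAzol per the methods, and liver RNA with a Nucleospin kit.

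From FPKM and counts, the library size behind each FPKM was recovered, and 100% of values came out as whole reads (tolerance 0.01). Relative to the reads on genes it was 0.7371 to 0.8118 in liver libraries and 1.0103 to 1.4032 in visWAT libraries, so the deposited FPKM contain a scaling between libraries. Depth bounds precision for genes of few reads, and intervals cover the spread between mice.

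The test across genes was limma 3.58.1 (R 4.3.3) with an empirical Bayes trend on log2(FPKM + 1), over genes with a mean of at least 0.5 FPKM in the libraries fitted and Benjamini-Hochberg adjustment over all of them, at 0.05. It was tested on simulated data. Each of 12 comparisons used the groups compared without covariates. Intervals are 95%. Since the deposited counts cover part of the genes, edgeR 4.0.16 and DESeq2 1.42.0 on recovered reads were alternatives, besides a pseudocount of 0.1, no filter, the TPM scale, leaving out each mouse, leaving out mice 182 and 183, and, between tissues, a replicate block of the mouse number. That pairing comes from the labels, as 1 number is 1 animal. Over 18 mice the deviations of visWAT and liver from their group means correlated at -0.078 to 0.219, above 0.1 in 3. No pair of replicate libraries agreed within sampling noise (chi-square per gene at least 9.82 over 64 pairs).

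The members, the 6 pathway lists and the 8 marker lists were chosen with earlier results of these data known. All members are named in every comparison. Of each pathway list, the genes eligible for naming were the up to 3 called genes with the largest difference whose groups did not overlap. For Fads1, Fads2, Elovl5 and Scd2, the 3 genes most alike in each tissue were taken by Pearson correlation over 18 libraries, among genes with a mean of at least 1 FPKM.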

Additional observations from a re-analysis of the deposited data

Results flagged for a closer look

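In 80 groups of 4 or 5 mice (10 members in 8 groups), 12 held a mouse that stood far from the others by Dixon's test, where chance gives about 4.0. Of these, 3 are the library labelled WT NCD mouse 182, with 491 FPKM of Scd2 and 57.8 FPKM of Elovl5 in visWAT and 123 FPKM of Scd2 in liver. The visWAT library of MlklAdi-KO HFD mouse 156 gave 2, with 1.91 FPKM of Elovl2 and 13.0 FPKM of Fads2. Elovl2 in visWAT also stood apart in MlklAdi-KO NCD mouse 199 (0.235 FPKM) and WT HFD mouse 164 (0.418 FPKM). Fads2 in visWAT was 15.6 FPKM in MlklAdi-KO NCD mouse 179, against 5.26 to 6.54 FPKM in the other 3. In liver, Elovl5 was 373 FPKM in WT HFD mouse 164, and Scd2 was 7.07 FPKM in WT HFD mouse 155. MlklAdi-KO HFD mouse 151 was low in liver for Elovl2 (161 FPKM) and Hacd3 (91.0 FPKM). The causes of these values were not tested.

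The response to diet differed between visWAT and liver of WT mice, by a test of the difference itself, for Fads1 (-0.51), Fads3 (1.37), Fads6 (0.56) and Elovl1 (1.20), on the log2(FPKM + 1) scale and with the visWAT difference taken minus that of liver. Fads1 lost its call under other settings. The value of Elovl2 (0.91) also passed, but this gene was near 0 in visWAT and entered through liver, so that the value restates its fall in liver (-0.87) and shows no difference between the tissues' responses.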

How the results depend on the processing

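Of the values of single members, 1138 of 1156 from leaving out 1 mouse stayed on their side of the threshold, 10 lost the call and 8 gained one. Over the other alternatives, 644 of 663 stayed, 7 lost the call and 12 gained one. No called member changed direction, while 87 of the 1819 values changed sign without a call under either setting. Of the other named genes, Agpat3, lower by 0.45 in WT visWAT under HFD, was at 0.01 on the TPM scale. The counts of members called without 1 mouse ranged from 4 to 4 in WT visWAT by diet, 4 to 5 in MlklAdi-KO visWAT, 4 to 6 in WT liver, 6 to 7 in MlklAdi-KO liver, 7 to 9 between tissues and 4 to 7 for the difference of the diet response between tissues, and stayed at 0 for genotype and its interaction with diet. With the replicate block, which pairs the tissues of a mouse, 9 members were called between tissues (8 without it) and 5 for the difference between tissues (5 without it).

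The number of all genes called depended on the tool where few were called. DESeq2 called 146 genes for genotype in visWAT under HFD (limma 3), 259 in liver under HFD (limma 26), 8 and 19 under NCD in visWAT and liver (limma 0 and 1), and 20 and 58 for the interaction (limma 0 and 2). In visWAT under NCD 528 genes and for the visWAT interaction 1867 genes had an unadjusted limma p below 0.05. Between tissues, 74.9% of calls were higher in visWAT on the TPM scale, against 48.1% on FPKM, with a median of all genes of 0.547 against -0.033. Elovl2 rests on few reads in visWAT, where depth limits the measurement, and with 4 or 5 mice a group small differences between genotypes were not detectable for the members with wide intervals. DESeq2 gave no adjusted p for Scd2 in 8 comparisons, among them genotype in visWAT under NCD and in liver at both diets, or for Elovl2 in the difference of the diet response between tissues.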

Other observations

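The genes most alike to 4 members were named by their Pearson correlation of log2(FPKM + 1) over the 18 libraries of a tissue, as a description, since these libraries share diet groups and, for Scd2 and Elovl5 in visWAT, 1 extreme library. In visWAT Fads1 was most like Gsr (0.96), the glutathione reductase, Cp (0.95), which encodes ceruloplasmin, and G3bp2 (0.946). Without mouse 182 these were 0.957, 0.945 and 0.942. Fads2 in visWAT was most like Aadac (0.871), Hoga1 (0.822) and Slc25a15 (0.779). Scd2 in visWAT was most like Cyp51 (0.946), an enzyme of cholesterol synthesis, Acsl3 (0.942) and Cyb5b (0.94), and these were 0.808, 0.788 and 0.777 without mouse 182. Elovl5 in visWAT was most like Rtn4ip1 (0.955), Tlcd2 (0.954) and Lonp1 (0.952), and these were 0.715, 0.619 and 0.718 without it.

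In liver Elovl5 was most like Ugt1a5 (0.965), Scd1 (0.954) and the water channel Aqp8 (0.946), and without mouse 182 these were 0.968, 0.95 and 0.969. Fads1 was most like H2-Q10 (0.892), Gstm2 (0.86) and Scd1 (0.857), and Fads2 like Slc43a3 (0.903), Ifi27l2a (0.862) and Col14a1 (0.855). Scd2 in liver was most like Pygb (0.968), Tagln2 (0.933) and App (0.933), and these were 0.861, 0.75 and 0.737 without mouse 182. Among the members themselves, the liver pairs Elovl2 and Tecr (0.93), Elovl1 and Elovl2 (0.92) and Elovl2 and Elovl5 (0.91) were most alike. Of the chromosome 19 neighbours, Fads1 and Fads2 were at 0.79 in liver, Fads1 and Fads3 at 0.68 and Fads2 and Fads3 at 0.43. These pairs were at 0.49, -0.78 and -0.29 in visWAT. In visWAT Elovl5 and Scd2 were at 0.77 with mouse 182 and at -0.05 without it.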
